A study of Sus scrofa with 2 samples.

Results

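The 10 genes described here encode postsynaptic scaffold proteins: DLG1 to DLG4, SHANK1 to SHANK3 and HOMER1 to HOMER3. Their transcripts were counted by RNA sequencing in frozen tissue of Rongchang pigs (Sus scrofa), a Chinese domestic breed, with 1 brain library and 1 liver library. Age, sex, the region of the brain, and whether animals were shared or pooled are not stated in the labels. Genes were chosen by name: rows of the deposited count table that carry a member's symbol, or a provisional gene number with the member's protein named as its product, were summed per gene. All 10 members had a row, 14 rows in all, among 21417 genes of the table. Depth was 23796843 counts for brain and 31724498 for liver. No difference below has a replicate check, and the 95% intervals cover counting error only.

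At an excitatory synapse, scaffold proteins hold glutamate receptors in place opposite the site of release and tie them to signalling enzymes and to the actin cytoskeleton. DLG proteins lie closest to the membrane and bind receptor tails with their PDZ domains, SHANK proteins form a deeper layer that is linked to them through the SAPAP proteins, and HOMER proteins bind SHANK, group I metabotropic glutamate receptors and the calcium channels of the endoplasmic reticulum. Each family has paralogues. From textbook knowledge, 6 members (DLG2, DLG3, DLG4, SHANK1, SHANK2 and HOMER1) were set down as brain-predominant and 4 (DLG1, SHANK3, HOMER2 and HOMER3) as broadly expressed, although several, SHANK2 among them, are known from epithelia or muscle too. The placings were made with earlier results of these data known, so they are no independent prediction.

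Levels are given as TMM-scaled CPM, that is counts per 1000000 after a scaling that allows for the different make-up of the 2 libraries. They are not corrected for transcript length, so they compare a gene between tissues and not a gene with another. A call of higher in a tissue was made when the log2 ratio of scaled CPM plus 1 reached 2 (brain) or -2 (liver), which is 4-fold. Plain library size multiplies the fold of every gene by 2.16. By this rule 5 of the 10 members were higher in brain (DLG4, SHANK1, DLG2, HOMER3 and DLG3) and 0 in liver. Over all genes at 1 CPM or more in a library, 14.6% were called in brain and 11.4% in liver. With plain library size DLG1 and SHANK3 were called too, 7 members in brain against 24.1% of all genes and 0 in liver against 6.02%. With a 2-fold line, 6 members lay on the brain side (27.5% of all genes) and 0 on the liver side (24.4%), and with an 8-fold line 3 on the brain side (8.55%) and 0 on the liver side (5.69%). The median log2 ratio of the members was 1.85, against 0.01 over all 15559 genes tested. All 10 members passed the filter on low values. In bulk tissue, fewer cells of a type and less RNA per cell cannot be told apart.

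**Figure D1:**
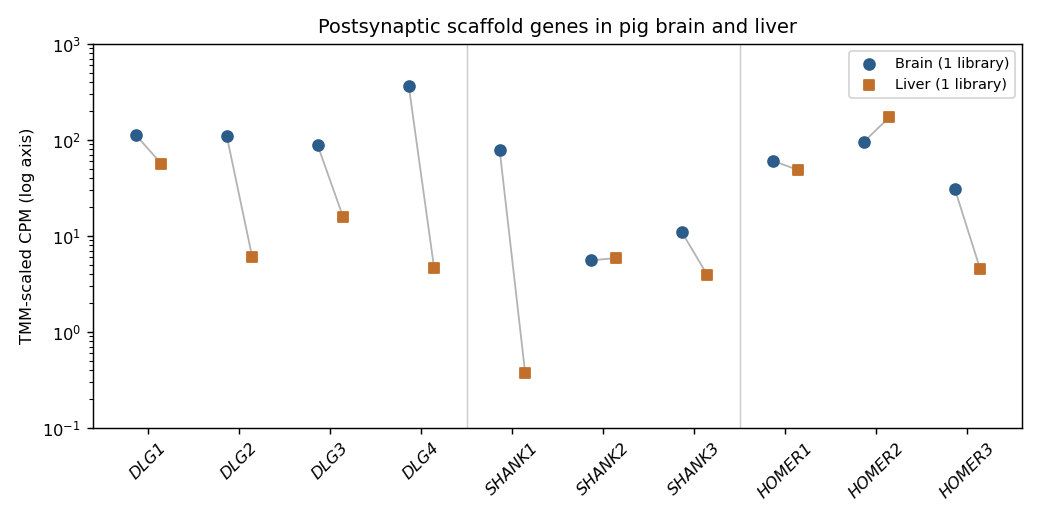
TMM-scaled CPM (log axis) of the 10 scaffold genes in the brain library (circles) and the liver library (squares), 1 library per tissue, with a line joining the 2 values of a gene. SHANK1 has the widest gap, 77.9 CPM in brain and 0.370 in liver, while the values of SHANK2 and HOMER1 lie close together and HOMER2 is lower in brain.

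The DLG genes encode membrane-associated guanylate kinases. DLG4, which encodes PSD-95, the most studied scaffold of the excitatory postsynapse, had 12891 counts (369 CPM) in brain and 99 counts (4.58 CPM) in liver. It was 80.5-fold higher in brain (95% interval 66.1 to 99.1), a log2 ratio of 6.05 that 1.14% of all tested genes reached or passed. DLG2, which encodes PSD-93, had 3871 counts (111 CPM) in brain and 131 counts (6.06 CPM) in liver, an 18.3-fold difference (15.4 to 21.9). DLG3, the X-linked gene of SAP102 in mammals, was 5.60-fold higher (5.01 to 6.29), with 3071 counts (87.9 CPM) in brain and 339 counts (15.7 CPM) in liver. DLG1 encodes SAP97, a scaffold of epithelial junctions and T cells as well as of synapses. It had 3947 counts (113 CPM) in brain and 1226 counts (56.7 CPM) in liver. Its 1.99-fold difference (1.87 to 2.12), a log2 ratio of 0.98, stayed below the 4-fold line, and 28.0% of tested genes had a ratio at least as high. All 4 DLG genes were thus above their liver level in brain, by amounts whose counting intervals did not overlap.

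SHANK proteins carry ankyrin repeats, an SH3 domain, a PDZ domain and a proline-rich stretch that binds HOMER and cortactin. SHANK1 had 2723 counts (77.9 CPM) in brain and 8 counts (0.370 CPM) in liver. This was the largest fold of the 10, at 210, with a wide interval of 107 to 488 set by the few liver reads. SHANK3, whose product links synaptic receptors to actin and which is also transcribed outside the nervous system, had 384 counts (11.0 CPM) in brain and 85 counts (3.93 CPM) in liver. It was 2.79-fold higher in brain (2.20 to 3.58), a log2 ratio of 1.28 and so not called. SHANK2 had 194 counts (5.55 CPM) in brain and 127 counts (5.88 CPM) in liver. Its fold of 0.945 has an interval of 0.751 to 1.19, which holds 1, but the value rests on the scaling: it was 2.04 (1.62 to 2.57) with plain library size and 1.30 (1.03 to 1.64) with library size without the 50 highest genes. SHANK2 had been placed among the brain-predominant genes. The log2 ratio of SHANK2 was -0.07, but 0.87 under plain library size, short of 4-fold under each scaling run. The SHANK2 row spans 15032 bp and the SHANK3 row lies on a scaffold outside the chromosomes. Whether these older gene models hold the whole genes was not tested.

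HOMER proteins join SHANK to receptors and calcium channels through an EVH1 domain and form tetramers through a coiled coil. HOMER3, which in the rodent brain is abundant in cerebellar Purkinje cells, had 1085 counts (31.1 CPM) in brain and 97 counts (4.49 CPM) in liver. It was 6.92-fold higher in brain (5.62 to 8.60), a log2 ratio of 2.55, although it had been placed among the broadly expressed genes. HOMER1, which yields long forms and the short, activity-induced Homer1a, had 2121 counts (60.7 CPM) in brain and 1049 counts (48.6 CPM) in liver. Its fold of 1.25 (1.16 to 1.35) puts it near the middle of the table, where 42.3% of tested genes had a ratio at least as high. Whether the HOMER1 rows of the table separate the long and short forms is not known here. HOMER2 had 3326 counts (95.2 CPM) in brain and 3715 counts (172 CPM) in liver, so that its liver level was 1.81 times its brain level (1.72 to 1.89). The log2 ratio of HOMER2, -0.85, was the lowest of the 10, and it was 0.25 with plain library size, where the direction turns.

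**Figure D2:**
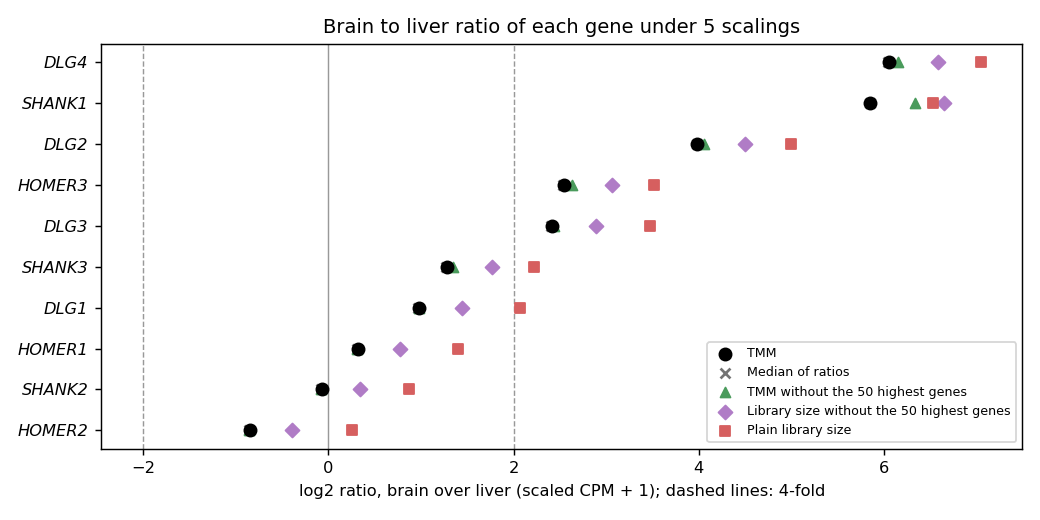
Log2 ratio of scaled CPM plus 1, brain over liver, for each gene (rows, highest at the top) under TMM and 4 other scalings (symbols), with dashed lines at 4-fold. DLG4 and SHANK1 head the genes under each scaling, and plain library size (squares) moves every gene to the right, putting DLG1 at 2.07 and SHANK3 at 2.22, past the line.

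The 2 sets of paralogues overlapped. Of the 6 brain-predominant members, 4 passed the 4-fold line in brain, and the median log2 ratio was 3.20, with a range of -0.07 to 6.05. Of the 4 broadly expressed members, 1 was, and the median was 1.13, with a range of -0.85 to 2.55. HOMER1 and SHANK2 of the first set lay below DLG1 and SHANK3 of the second. The percentage of all genes called in brain (14.6%) is the background for these counts, and with so few members no test of the sets was made.

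A comparison of 2 paralogues by the ratio of their folds depends neither on the scaling nor on gene length, since both cancel. The fold of DLG4 was 40.4 times that of DLG1 (32.8 to 50.3), 14.4 times that of DLG3 (11.4 to 18.2) and 4.41 times that of DLG2 (3.36 to 5.79). Within the SHANK family, the fold of SHANK1 was 223 times that of SHANK2 (107 to 533) and 75.3 times that of SHANK3 (36.1 to 181). SHANK3 in turn stood 2.96 times above SHANK2 (2.11 to 4.15). Within the HOMER family, the fold of HOMER3 was 12.5 times that of HOMER2 (10.1 to 15.6) and 5.53 times that of HOMER1 (4.43 to 6.97), and HOMER1 stood 2.26 times above HOMER2 (2.07 to 2.47). None of these intervals holds 1, and they say nothing about variation between animals.

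The families therefore differed in make-up between the tissues. DLG4 gave 54.2% of the DLG counts in brain (Wilson 95% interval 53.6 to 54.8) and 5.52% in liver (4.55 to 6.67). DLG1 gave 16.6% in brain (16.1 to 17.1) and 68.3% in liver (66.1 to 70.4). SHANK1 supplied 82.5% of SHANK counts in brain (81.2 to 83.7) and 3.64% in liver (1.85 to 7.01), where SHANK2 held 57.7% (51.1 to 64.1). HOMER2 gave 50.9% of HOMER counts in brain (49.7 to 52.1) and 76.4% in liver (75.2 to 77.6), and HOMER3 made up 16.6% in brain (15.7 to 17.5) and 1.995% in liver (1.64 to 2.43). These are shares of counts, in which a longer transcript weighs more. The shift of a gene's share between tissues can be read, but not the order of genes within a tissue. A larger share is not a higher level: DLG1 had its larger share in liver but 56.7 CPM there against 113 in brain. Summed over the family, DLG counts were 8.19-fold higher in brain (681 CPM in brain, 83.1 in liver) and SHANK counts 9.28-fold (3301 counts in brain, 220 in liver). HOMER counts were 187 CPM in brain and 225 in liver, 1.20-fold higher in liver (1.16 to 1.25). The direction of the HOMER sum turns with the scaling, to a fold of 1.79 toward brain with plain library size and 1.14 with library size without the 50 highest genes, while the DLG and SHANK sums were 17.7-fold and 20.0-fold higher in brain with plain library size.

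**Figure D3:**
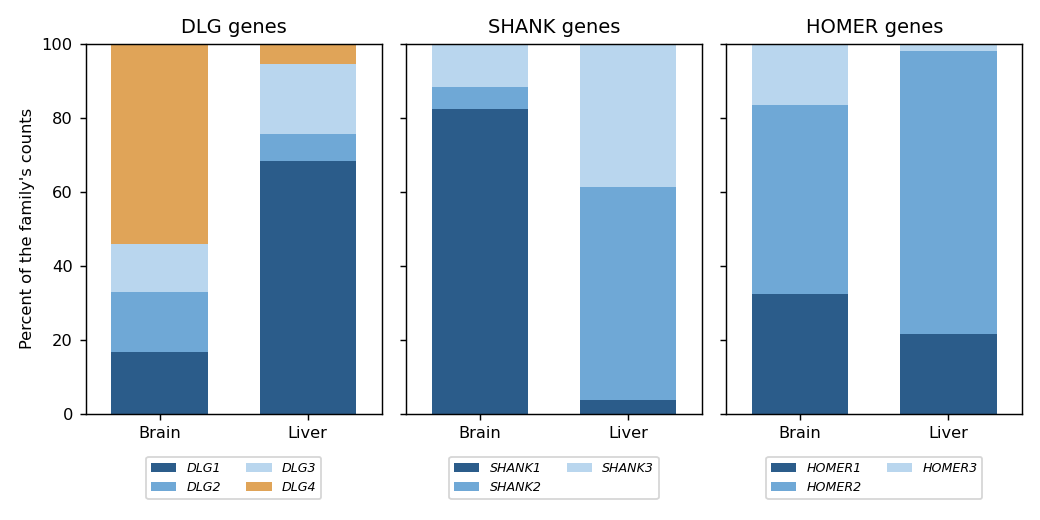
Percent of each family's counts (vertical axis, 0 to 100) given by each gene, brain bar left of liver bar, for the DLG, SHANK and HOMER genes. DLG4 holds 54.2% of the brain bar and 5.52% of the liver bar, and SHANK1 82.5% and 3.64%.

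In the table, 3 members are split over several rows, which were read separately as a look inside the sums. DLG2 has a row of 406 kb with 3086 brain and 82 liver counts, 23.3-fold higher in brain (18.7 to 29.3), and a row of 28.2 kb with 785 brain and 49 liver counts, 9.91-fold higher (7.42 to 13.5). Both rows lay far on the brain side, and the intervals of their folds did not overlap. DLG1 has a row of 292 kb with a fold of 2.27 (2.08 to 2.49) and a row of 7.75 kb with a fold of 1.68 (1.53 to 1.85). A further DLG1 row, on a scaffold outside the chromosomes, had 31 brain and 3 liver counts. HOMER1 has a row of 57.3 kb, with 2018 brain and 951 liver counts and a fold of 1.31 (1.21 to 1.42). Its second row, of 8.98 kb, had 103 brain and 98 liver counts and was 1.54-fold higher in liver (1.15 to 2.05). The HOMER1 rows thus lay on opposite sides of an equal level, and with plain library size the fold of the 8.98 kb row was 1.40 in the direction of brain. The table gives no start or end, so which exons a row holds is not known here.

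**Figure D4:**
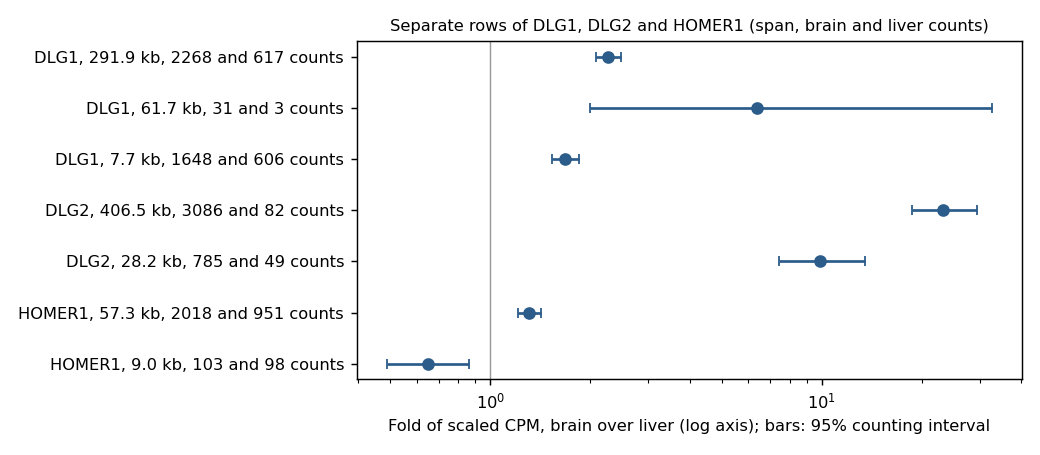
Fold of scaled CPM, brain over liver (log axis), for each row of DLG1, DLG2 and HOMER1, labelled with its span and its brain and liver counts, with 95% counting intervals as bars. Both DLG2 rows lie near or above 10-fold, the DLG1 rows with most counts near 2-fold, and the HOMER1 rows on either side of 1.

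The liver counts of the brain-side members were set beside those of STMN2, a neuronal gene with 71119 brain and 10 liver counts, so that its liver count was 0.0141% of its brain count. Over the 5 neuron markers this percentage ran up to 0.634%. The liver count of SHANK1 was 0.294% of its brain count, inside that range, and that of DLG4 0.768%, above it. At the percentages of the markers SHANK1 would have 0.383 to 17.3 liver counts (8 measured) and DLG4 1.81 to 81.7 (99 measured). Whether reads were carried over between the 2 libraries, whose titles carry the same lane and barcode text, was not tested. In the other direction the brain count of ALB, serum albumin, was 0.0262% of its liver count, the lowest of the 6 hepatocyte markers. The highest was 3.40%, for APOA1. At the percentage of ALB, HOMER2 would have 0.973 brain counts in place of 3326, and more at that of APOA1.

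Markers of cell types were read in the same libraries. All 5 neuron markers with a row were called in brain, and their summed level was 4347 CPM in brain against 8.52 CPM in liver. All 4 astrocyte markers were also called in brain, with sums of 914 CPM in brain against 13.8 CPM in liver, and AQP4 was at 0 in liver. For oligodendrocyte markers it was all 3 that passed the filter, with sums of 1672 CPM in brain against 29.4 CPM in liver, and MOG, with 21 brain counts, was at 0 in liver. Hepatocyte markers (6 of 6 called in liver) had a summed level of 313 CPM in brain against 419771 CPM in liver. Of 4 endothelial markers, 3 were called in liver, with sums of 51.3 CPM in brain and 369 CPM in liver. Cholangiocyte markers had sums of 28.6 CPM in brain against 29.7 CPM in liver (1 of 4 called, EPCAM, in liver), and KRT7, with 27 liver counts, was at 0 in brain. For skeletal muscle, in which HOMER1 is also made, ACTA1 had 322 counts in brain and 2 in liver, and CKM 4 in brain and 8 in liver. The part of any of these cell types in the values of the scaffold genes was not tested.

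The partners of the scaffolds differed among themselves. Their counts stand against the 14.6% of all tested genes called in brain and 11.4% in liver. Of 21 SAPAP and signalling genes with a row, 8 passed the 4-fold line in brain and 0 in liver, with a median log2 ratio of 1.39. CAMK2B, a subunit of the calcium and calmodulin-dependent kinase of the postsynapse, was at 308 CPM in brain and 0.833 CPM in liver (log2 ratio 7.40). The dynein light chains DYNLL1 (1.39) and DYNLL2 (0.86), which bind a partner protein of the scaffolds and also serve motors in every cell, were not called. The SAPAP genes link DLG to SHANK proteins and were looked at after their values were seen. DLGAP1 was at 184 CPM in brain and 4.40 CPM in liver (5.10), DLGAP4 at 143 CPM in brain and 27.0 in liver (2.37), and DLGAP2 at 5.21 CPM in brain and 2.27 in liver (0.93). DLGAP3 had 571 brain counts and 0 in liver. Its fold was 118 with the floor of 3 counts put in place of the 0, and the exact 95% interval begins at 95.4.

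Receptors and adhesion proteins that DLG proteins anchor lay on the brain side where they passed the filter. All 16 that passed the filter, of 17 with a row, passed the 4-fold line in brain, with a median log2 ratio of 5.11 (5.02 with genes at 0 in liver put at the floor). Most of them passed the filter by their brain level alone, which in itself puts a ratio on the brain side. The gene that did not pass, GRIN2C, had 4 brain and 3 liver counts. GRIA2, an AMPA receptor subunit, was at 421 CPM in brain and 0.324 CPM in liver (8.32). GRIA4, of the same family, was at 6.36, the NMDA receptor subunit GRIN2B at 5.16, and CACNG3, an auxiliary subunit of AMPA receptors, at 7.61. Even the lowest of the 16, at 2.83, was above DLG3 and HOMER3.

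Partners of HOMER were divided. Of 14 tested, 5 passed the 4-fold line in brain and 0 in liver (median 1.36, and 1.27 with genes at 0 put at the floor). RYR2, a calcium release channel, was at 166 CPM in brain and 1.39 CPM in liver (6.13), AGAP2, a GTPase-activating protein, at 6.64 and DBN1, the actin-binding drebrin, at 3.81. ITPR1, the inositol trisphosphate receptor, was at 31.2 CPM in brain and 34.9 CPM in liver, a log2 ratio of -0.16 that was above 0 with plain library size (0.92). GRM5 had no row under its symbol and was not analysed here.

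Among 15 further genes of the MAGUK superfamily, to which the DLG genes belong, 4 were called in brain and 2 in liver (median 0.86). The liver count is close to the 11.4% of all tested genes called there. Those in liver included TJP3, which encodes a protein of epithelial tight junctions and was at 1.60 CPM in brain and 18.2 CPM in liver (-2.88). With plain library size TJP3 was at -1.997, and 7 genes of this list were called in brain and 0 in liver. CASK (1.40), MAGI3 (0.86) and MAGI1 (-0.07), which are found at many cell contacts, were not called, and MAGI1 was at 1.02 with plain library size. Of 9 polarity genes with a row, which work beside DLG1 in epithelia, 4 were called in brain and 0 in liver (median 0.83). They included PRKCZ, an atypical protein kinase C (2.92), and LIN7B, a PDZ adaptor (3.71). PARD3 (-1.68) and LIN7C (-1.33) had their higher level in liver, short of 4-fold.

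The scaffold of inhibitory synapses served as a contrast. GPHN, which encodes gephyrin and also acts in molybdenum cofactor synthesis in liver and other tissues, was at 91.0 CPM in brain and 91.2 CPM in liver. The log2 ratio of GPHN was 0.00, but 1.09 under plain library size. NLGN2, an adhesion protein of inhibitory synapses, was called in brain, at 16.8 CPM in brain and 0.324 CPM in liver (3.75). It is also counted among the anchored receptors and adhesion proteins. IGSF9B, another such adhesion protein, had 70 brain and 4 liver counts (1.34). Of the 4 genes of this list that passed the filter, 2 were called in brain and 0 in liver (median 2.55).

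**Figure D5:**
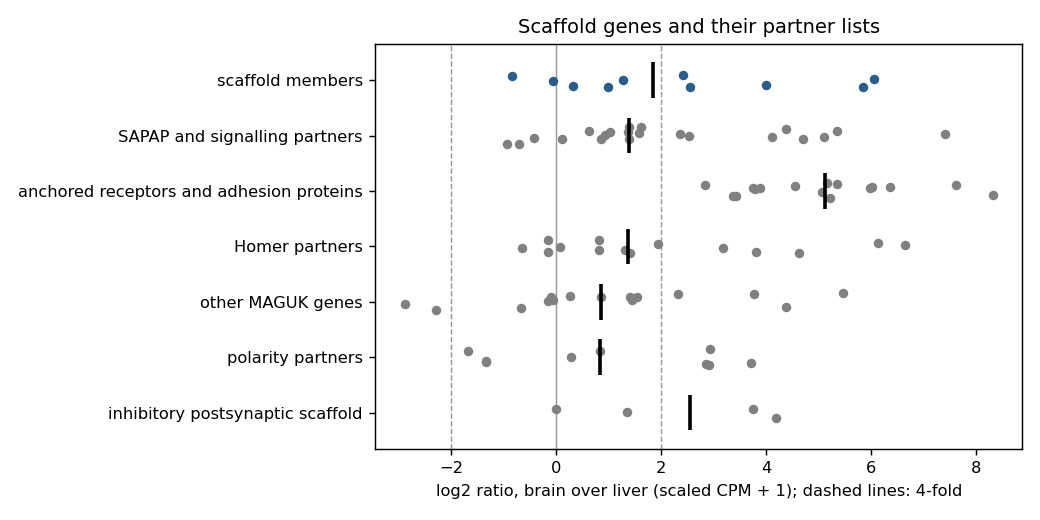
Log2 ratio of scaled CPM plus 1, brain over liver, of each gene that passed the filter, for the 10 scaffold genes (top) and 6 lists of partners or relatives (rows), with vertical bars at the medians and dashed lines at 4-fold. Every anchored receptor and adhesion gene lies right of 2, while the other lists and the scaffold genes spread across 0.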

How the data were processed

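Pig brain and liver RNA was sequenced. Per the labels, tissue was frozen, RNA extracted with RNAiso Plus and libraries made by the standard Illumina protocol. The authors deposited raw counts per gene for both libraries in 1 table; the unit was judged from the whole-number values and unequal totals. The table also holds a deposited gene length in bp, another value, used only to describe rows. TopHat and the build Sscrofa10.2 (susScr3) are named in the submitters' processing notes. How reads were counted, and whether by strand, is not given in the sources used here, so reads of overlapping genes and paralogues may be shared.

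Of 21817 rows, 7964 were named by the table, 6588 by gene number, 236 by synonym and 42 by transcript accession from a RefSeq table of another assembly, Sscrofa11.1, used for names alone, and 10 by product name. Another 6977 stayed unnamed and entered all totals. Rows were summed per gene. Members, lists and placings were chosen with earlier results of these data known. From each list the text names the 4 genes with the highest mean level and any called against its median, and from marker lists some of the 2 highest genes and any at 0. A few genes that fall under it are left out of the text. Outside this rule, the SAPAP genes are said to be looked at after their values were seen. GRIN2C, which did not pass the filter, and APOA1, with the highest percentage, were also picked by their values.

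TMM factors from edgeR 4.0.16 (R 4.3.3), used for scaling and for no test, were 1.47 (brain) and 0.681 (liver), and 1 CPM is 34.9 counts in brain and 21.6 in liver. Genes at 1 CPM or more in a library were tested against the 4-fold rule, with a pseudocount of 1 CPM. Folds of single genes have no pseudocount and exact conditional binomial intervals, and ratios of 2 folds have exact conditional intervals of the odds ratio (scipy 1.17.1). The script was checked on simulated counts with the real depths and counting error only, in which a 4-fold line nearly fixes the outcome and variation between animals plays no part: of 100 genes set 16-fold apart 100 were called, of 100 genes set 2-fold apart 0, and of 14990 unaltered genes 0. Both simulated libraries shared the same mean profile, and the altered genes had middling counts. A difference in make-up between libraries, and low counts among altered genes, were therefore not covered. Single libraries allow no test, and no p-value is given. No genome or sequence table was used here, so no sequence is shown.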

Additional observations from a re-analysis of the deposited data

How the results depend on the processing

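Plain library size moved the median of all tested genes by 0.96 on the log2 scale, and library size without the 50 highest genes of either library, an alternative added after seeing the data, by 0.45. The other scalings moved it by less than 0.1. Relative to its median of all genes, plain library size put DLG1 at 1.10 and SHANK3 at 1.24. The median log2 ratio of the brain-predominant members was 3.20. It was 4.24 with plain library size, 3.69 with library size without the 50 highest genes, 2.78 with a pseudocount of 5 CPM and 2.41 when only rows with the gene's own symbol were used, which leaves out DLG2. That of the broadly expressed members was 1.13, and under the first 3 of these settings 2.15, 1.60 and 0.89. With own-symbol rows alone it rests on a single DLG1 row. The number of members called in brain was 5. It was 7 with plain library size (24.1% of all genes), 6 at 2-fold (27.5%), 3 at 8-fold (8.55%) and 4 with a pseudocount of 5 CPM. With own-symbol rows alone it was 3, but DLG2, SHANK3, HOMER2 and HOMER3 have no such row. For the pseudocount and own-symbol settings the share of all genes called is not given here. The number of members called in brain was 5 under the remaining 7 settings run, and 0 members were called in liver under all 12. No paired analysis was possible because each tissue has 1 library. Of the single log2 ratios of members under other settings, 27 moved beyond their counting interval and 49 did not, and 0 called ratios changed sign. Of 144 counts for partner lists, 7 were higher and 9 lower by over 1.5 times. With plain library size, 13 SAPAP and signalling genes were called in brain, against 8, and with a pseudocount of 0.1 CPM 9 partners of HOMER, against 5. Own-symbol rows alone leave out genes with no row under their symbol. The brain counts were then 4 for SAPAP and signalling genes and 10 for anchored receptors and adhesion proteins, against 16. They were 2 each for partners of HOMER and polarity genes, against 5 and 4. At 8-fold 1 polarity gene was called in brain. By depth, SHANK1 with 8 liver counts is limited most. SHANK3 with 85 liver counts, HOMER3 with 97, DLG4 with 99 and SHANK2 with 127 are limited less. The value of SHANK2 also rests on the scaling.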
